A study of Mus musculus with 2 samples.

Results

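Histone genes were examined in mouse embryonic stem cells (ESCs) with and without G9a (gene *Ehmt2*), the methyltransferase that places H3K9me2 on histone H3. The members were the genes whose only symbol for a probe set in the platform annotation is a histone symbol of the older Hist1h to Hist4h kind or of the current H1f, H2ac, H2az, H2ax, H2bc, H3c, H3f or H4c kind. This rule gave 18 genes of 18194 named genes, measured by 25 probe sets of 45101. Of these genes, 10 were clustered histone genes, which carry an older Hist1 or Hist2 symbol, and 8 were variant genes placed apart from the clusters.

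WT ESCs of the line TT2, which came from an F1 embryo (C57BL/6 mother, CBA father), were measured on 1 array, and G9a-KO ESCs on another. The G9a-KO cells were TT2 cells in which exons 26 and 27 of *G9a* had been removed by conditional targeting. Both samples carry the same treatment note, 800 nM 4-hydroxytamoxifen for 48 h to delete the conditional allele and a further 48 h without it, and the sources do not say if WT cells were given the drug. The methods of the study give the G9a-KO cells as *G9a*-/- and grown on inactivated mouse embryonic fibroblasts, in serum and LIF. No spread between replicates exists, so the differences (log2 of G9a-KO over WT) have no replicate check and no p-value. In bulk samples, fewer cells of a type and less RNA per cell cannot be told apart.

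Core histones H2A, H2B, H3 and H4 form the nucleosome, and linker histone H1 binds where DNA enters and leaves it. The clustered genes are expressed mainly in S phase, and most of their mRNAs end in a stem-loop in place of a poly(A) tail. Variant genes mostly give polyadenylated mRNAs throughout the cell cycle, though not without exception, and many of their proteins replace the canonical histones at particular places. RNA for these arrays was labelled from the poly(A) tail, so that a clustered gene is read through polyadenylated or internally primed transcripts, and the share of its mRNA that this covers was not measured.

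*Ehmt2* stood at 2.05 in WT and 0.51 in G9a-KO by its brighter probe set (2.90-fold lower) and at -2.27 and -2.07 by the other, and neither checks the deletion, since the position of the probes in the gene was not used here. All levels are log2 values from which the 75th percentile of their array was subtracted, and the median of all probe sets was -2.24 in WT and -2.13 in G9a-KO. Past 1.3-fold, 17.4% of all named genes were higher in G9a-KO and 17.2% lower. For genes above the median of at least 1 array, 21.0% were higher and 22.8% lower. ESC markers were above the median in 12 of 12 cases, with 4 lower and 1 higher past 1.3-fold and a median difference of -0.24. Primitive endoderm markers moved with the genotype, with 20 of 24 over 1.3-fold higher in G9a-KO and a median level of -1.84 in WT and 1.48 in G9a-KO. Of 18 fibroblast markers, 7 were over 1.3-fold higher and 1 was lower, the median level was -2.47 and -2.36, and *Col1a1*, *Col3a1*, *Dcn*, *Lum* and *Postn* lay below the median on both arrays, whereas *Col5a2* (8.32-fold), *Timp3* (3.14-fold), *Fn1* (3.05-fold) and *Col6a3* (2.58-fold) were higher in G9a-KO. The part of these cells in the values below was not tested.

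The linker histone genes *H1f2* and *H1f4* differed in opposite directions, whereas the H2A.Z genes *H2az1* (-0.39, past 1.3-fold) and *H2az2* (-0.32, within it) had differences of like sign and size. The 250 bases before the RefSeq start of these 4 genes are shown for that reason, 5′ to 3′, from build GRCm38.p6. Capitals mark matches, on either strand, to the CCAAT box (CCAAT), the TATA box (TATAAA), the octamer of H2B promoters (ATTTGCAT) and the H1 box (AAACACA).

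H1f2 (chr13:23738557-23738806, plus strand): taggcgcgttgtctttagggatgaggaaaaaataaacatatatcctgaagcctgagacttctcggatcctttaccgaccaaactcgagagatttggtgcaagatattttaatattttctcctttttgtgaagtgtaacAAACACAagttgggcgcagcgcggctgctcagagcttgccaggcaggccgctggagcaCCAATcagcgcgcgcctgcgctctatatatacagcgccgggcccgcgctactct
H1f4 (chr13:23622559-23622808, minus strand): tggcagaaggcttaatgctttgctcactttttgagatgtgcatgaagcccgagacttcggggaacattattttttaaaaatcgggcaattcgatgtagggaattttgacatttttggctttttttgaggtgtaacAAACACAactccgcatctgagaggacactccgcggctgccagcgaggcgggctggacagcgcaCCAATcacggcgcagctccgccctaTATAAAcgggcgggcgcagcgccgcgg
H2az1 (chr3:137864237-137864486, plus strand): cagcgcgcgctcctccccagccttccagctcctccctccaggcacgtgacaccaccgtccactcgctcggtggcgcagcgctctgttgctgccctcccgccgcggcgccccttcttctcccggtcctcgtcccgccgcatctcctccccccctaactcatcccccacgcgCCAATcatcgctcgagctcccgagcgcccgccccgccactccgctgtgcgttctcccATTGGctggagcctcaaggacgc
H2az2 (chr11:6444444-6444693, minus strand): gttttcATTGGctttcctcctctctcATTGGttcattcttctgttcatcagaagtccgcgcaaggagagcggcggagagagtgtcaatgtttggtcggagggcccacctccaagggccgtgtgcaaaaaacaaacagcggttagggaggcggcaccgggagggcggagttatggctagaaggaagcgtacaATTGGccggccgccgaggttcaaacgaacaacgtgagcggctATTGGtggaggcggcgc

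Of the 18 members, 15 had a RefSeq promoter entry. A CCAAT box lay in the window of 8 of 8 clustered and 5 of 7 variant genes, against 33.8% of 32851 promoters. TATAAA was held by 4 clustered genes and 1 variant gene (12.4% of all promoters). The H1 box, which both *H1f2* and *H1f4* hold, was found in 3 clustered genes and 1 variant gene (6.25% of all). The octamer was found in *H2bc18* and *H3f3b* (1.60% of all). These matches describe letters and not bound sites. Of the linker histone pair, *H1f4* holds TATAAA and *H1f2* has no exact match. The *H1f2* window has tatatata near its end, a string that was not searched for. The search thus does not show that *H1f2* lacks a TATA box.

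Over all members, the differences of the clustered genes had a wider range than those of the variants, mainly through *H1f2* (-2.13) and *H3c7* (-1.18). Without probe sets that can bind several transcripts *H1f2* differed by -0.20, and by its current symbol alone it would count as a variant. At 1.3-fold, the threshold of the study for this pair, 4 of 10 clustered genes were lower in G9a-KO and 1 was higher. Of the 8 variant genes, 1 was lower and 1 was higher. By the same measure, in which the probe set with the highest mean stands for a gene, 17.2% of all named genes were lower and 17.4% higher. The differences of the clustered genes ran from -2.13 to 0.69 and those of the variants from -0.39 to 0.55. The medians were -0.009 and -0.00073, beside 0.036 for all genes. At 2-fold, 2 clustered genes were lower and 0 members were higher, with 3.76% of all genes lower and 4.61% higher.

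Of the 4 clustered genes past 1.3-fold lower, *H2bc21* and *H3c11* were dim, that is, below the median of both arrays. Of the members, 13 were above the median of at least 1 array, 7 of them clustered. Of these 7, *H1f2* and *H3c7* (2 genes) had lower values past 1.3-fold and *H1f4* (1 gene) a higher one, and of the 6 variants 1 was lower (*H2az1*) and 1 higher (*H3f3b*). Among all 12600 genes above the median, 22.8% were lower and 21.0% higher. Counted by the rule of the study, in which at least 1 probe set past the fold is enough, the clustered genes had 4 lower and 1 higher, and the variants had 1 lower and 2 higher, with 22.0% of all genes lower and 24.6% higher.

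**Figure D1:**
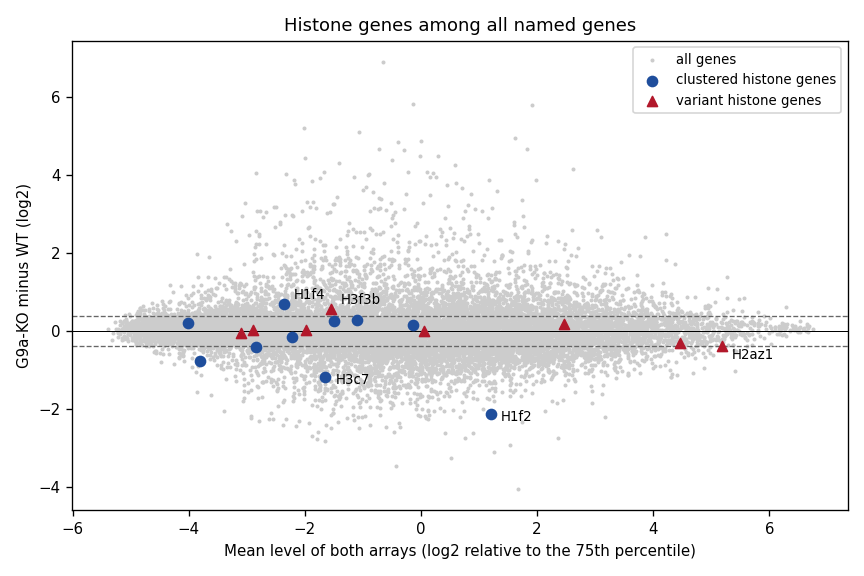
For 18194 named genes (grey points), the vertical axis gives the log2 difference, G9a-KO over WT, and the horizontal axis the average log2 level, relative to each array's 75th percentile. Clustered histone genes are blue circles, variants are red triangles, and dashed lines mark 1.3-fold, from 1 array of each genotype. *H1f2* lies at -2.13, below all the other histone genes, and the variant genes lie between -0.39 and 0.55.

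*H1f2* (older symbol *Hist1h1c*), which encodes the linker histone H1.2, had the lowest difference of the members. It stood at 2.27 in WT and 0.13 in G9a-KO, a 4.39-fold lower value. Its second probe set gave 1.51 and -0.64, 4.46-fold lower. Both of these probe sets lay above the 75th percentile of the array in WT and near or below it in G9a-KO, and both are of the kind that can bind several transcripts. The third, close to the array median, gave -1.94 and -2.13, a difference of -0.20. Among all 18194 genes, counted from the lowest difference, *H1f2* had rank 51.

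The other linker histone genes among the members did not share this. Only *H1f10* of them was neither a germ cell gene nor close to the array median. The Hist1 genes *H1f3* and *H1f5* had no probe set of their own, so they could not be compared. *H1f4* (*Hist1h1e*), which encodes H1.4, stood at -2.71 in WT and -2.02 in G9a-KO, 1.62-fold higher, but it was below the median in WT and only just above it in G9a-KO. *H1f6* (*Hist1h1t*), the testis-specific gene of the Hist1 cluster, stood at -1.63 and -1.37 (0.26). *H1f10*, which encodes the replication-independent H1X, was nearly equal at 0.066 and 0.053. The spermatid gene *H1f7* (-3.08 and -3.12) and the oocyte gene *H1f8* (-2.91 and -2.89) were below the median on both arrays. A second probe set of *H1f7*, dimmer still, gave -4.38 and -3.97.

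**Figure D2:**
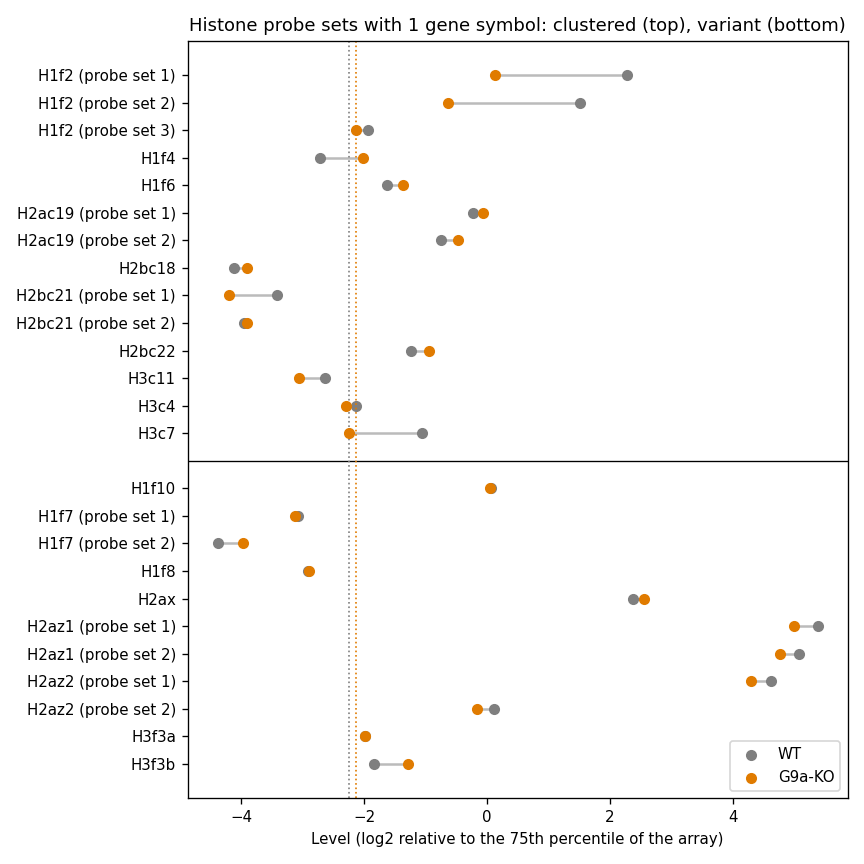
Level of each of the 25 histone probe sets (horizontal axis, log2 after subtracting the 75th percentile), with WT in grey and G9a-KO in orange and 1 array behind each point, clustered genes above the line and variant genes below it and dotted lines at the array medians. The first 2 probe sets of *H1f2* run from 2.27 to 0.13 and from 1.51 to -0.64, and *H3c7* runs from -1.05 to -2.24, while most other pairs lie close together.

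Among the clustered H3 genes, which encode the canonical H3 proteins, *H3c7* (*Hist1h3f*) was 2.27-fold lower, at -1.05 in WT and -2.24 in G9a-KO. The G9a-KO value lay below the median of its array. *H3c11* (*Hist1h3i*) stood at -2.64 and -3.06 (1.34-fold lower) and was below the median on both arrays. *H3c4* (*Hist1h3d*) stood at -2.13 and -2.30, within 1.3-fold. All 3 genes had lower values in G9a-KO, and of those past 1.3-fold only *H3c7* was above the median on either array.

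The clustered H2A and H2B genes mostly lay within the threshold. *H2ac19* (*Hist2h2aa2*) stood at -0.22 in WT and -0.066 in G9a-KO, and at -0.74 and -0.47 by its other probe set. *H2bc22* (*Hist1h2bp*) stood at -1.24 and -0.95 (0.29). Both genes were slightly higher and above the median on both arrays. The *H2bc22* probe set and the brighter one of *H2ac19* are of the kind that can bind several transcripts. *H2bc18* (*Hist2h2bb*) was dim, at -4.11 and -3.91. *H2bc21* (*Hist2h2be*) was also dim and its probe sets disagreed, with -3.42 and -4.19 (1.70-fold lower) by the one and -3.95 and -3.90 by the other, whose deposited values were identical on both arrays.

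Few neighbours within a cluster were both measured. In RefSeq order, *H3c11* (-0.42) and *H2bc22* (0.29) of the Hist1 cluster are separated by 1 protein-coding gene, as are *H2bc21* (-0.77) and *H2ac19* (0.16) of the Hist2 cluster. The signs within each pair were opposite, but *H3c11* and *H2bc21* were dim, and the other probe set of *H2bc21* gave 0.056. In addition, the values of *H2bc22*, *H2ac19* and *H2bc21* came from probe sets that can bind several transcripts. Of the 7 members in Hist1, 3 had values over 1.3-fold lower and 1 over 1.3-fold higher, and of the 3 in Hist2, 1 was lower, beside 17.2% lower and 17.4% higher of all genes. The Hist2 gene and 1 of the lower Hist1 genes were the dim ones just named.

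H2A.Z, a variant found around transcription start sites, is encoded by both *H2az1* and *H2az2*. *H2az1* stood at 5.38 in WT and 4.99 in G9a-KO (1.31-fold lower), and at 5.07 and 4.76 by its other probe set (1.24-fold lower). *H2az2* stood at 4.62 and 4.30 (1.24-fold lower), and at 0.12 and -0.17 by its other probe set (1.23-fold lower). The 4 probe sets differed by -0.39 to -0.30, and 1 of them passed the threshold. The spiked control probe sets of the arrays differed by -0.16 to 0.21, and the robust SD of all genes above the median was 0.48. The differences of these 4 probe sets thus exceed the range of the former and not the latter. Spiked controls do not come from the cells, so their range leaves out variation between cultures and RNA preparations. Both *H2az1* probe sets and the brighter *H2az2* one are of the kind that can bind several transcripts. A pair of probe sets shared by *H2az1* and a predicted gene gave smaller differences, -0.18 and -0.10.

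Of the remaining variants, only *H3f3b* passed 1.3-fold, by a probe set of low signal. *H2ax*, whose protein is phosphorylated at DNA breaks, stood at 2.38 and 2.55 (0.17). The H3.3 genes *H3f3a* and *H3f3b*, which supply H3 outside S phase, were each measured here by 1 probe set of low signal. *H3f3a* stood at -1.99 and -1.98. *H3f3b* stood at -1.83 in WT and -1.28 in G9a-KO, 1.47-fold higher. Both lay above the median on both arrays, but far below 0, the 75th percentile.

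Brighter signal for several histones came from 24 probe sets that are annotated to more than 1 gene, at least 1 of them a histone gene of the rule. They are no members, cannot be assigned to a single gene and were examined after the members' values were known. Of these, 19 were above the median, and of these 4 were over 1.3-fold higher and 4 over 1.3-fold lower, shares close to the 21.0% higher and 22.8% lower of genes above the median. The brightest H4 probe set, annotated to 13 genes, stood at 2.38 in WT and 3.24 in G9a-KO (1.82-fold higher), whereas another with the same annotation stood at -0.96 and -1.62 (1.58-fold lower). The rest of the 5 H4 probe sets, also of this annotation, differed by 0.14, 0.35 and -0.19, within 1.3-fold. The brightest probe set of the clustered H3 genes, shared by 12 genes, was 1.96-fold higher (1.91 and 2.89), and a second one of the same 12 genes was not (-2.05 and -2.10). *H3c4*, *H3c7* and *H3c11* are among these 12 genes, so the brighter shared probe set and the genes' own probe sets pointed in opposite directions. Dimmer probe sets shared by 8 H3 genes, *H3c4* and *H3c7* among them, were higher by 1.00 and 0.41, from WT levels below the median (-3.02 and -2.53). One shared by *H3c2* and *H3c10* differed by -0.044.

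For H2A, a probe set of 10 clustered genes stood at 6.66 and 6.35 (-0.30). For H2B, a probe set annotated to 11 genes stood at 2.77 and 3.14 (0.37), whereas another shared by 3 of the Hist1 genes was 2.81-fold lower, at 2.08 in WT and 0.59 in G9a-KO, the lowest difference (-1.49) among the 24. Both other probe sets of the same 3 genes were dim and differed by 0.14 and -0.0084. For H3.3, 5 probe sets are shared by *H3f3a*, *H3f3b*, *H3f3c* and 3 predicted genes. All 5 were bright, from 4.48 to 5.94 in WT, and their differences ran from -0.79 to 0.021, with 2 over 1.3-fold lower. The higher value of *H3f3b* from its own probe set was thus not seen in them. The pair of probe sets shared by *H2az1* and a predicted gene differed by -0.18 and -0.10.

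**Figure D3:**
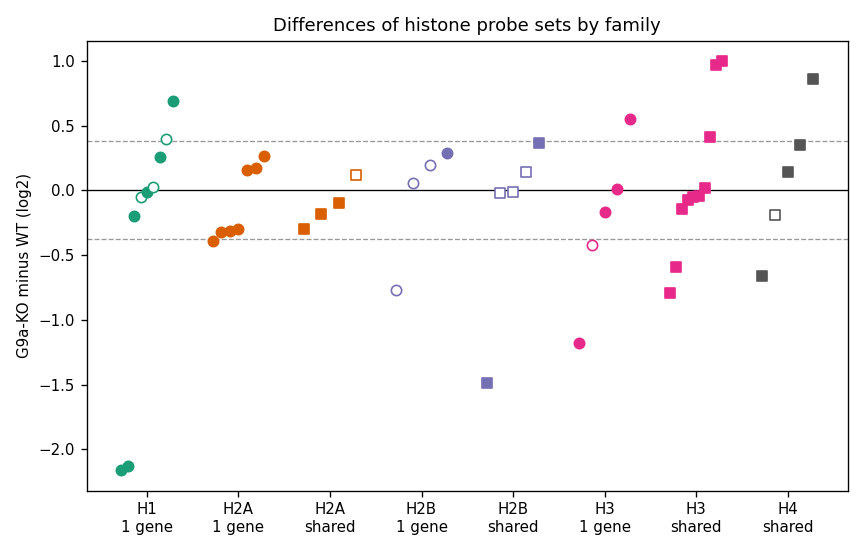
Each histone probe set by family, with its log2 difference, G9a-KO over WT, on the vertical axis, for probe sets annotated to 1 gene (circles) and those shared by several genes (squares), from 1 array of each genotype, filled where above the array median on at least 1 array and dashed lines at 1.3-fold. Shared H3 and H4 probe sets reach 1.00 and 0.86, the lowest shared H2B probe set lies at -1.49, and the lowest single-gene values are those of *H1f2*.

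Some histone genes have current symbols outside the rule but older symbols within it, and they were looked up after the values were seen. *H2aj* (*H2afj*), an H2A variant, was 2.08-fold higher by its bright probe set, at 2.57 in WT and 3.63 in G9a-KO, and by 0.17 and 0.25 in 2 fainter ones. *H2aw* (*Hist3h2a*) was 2.57-fold lower, at 0.21 and -1.15, by a probe set that can bind several transcripts, and a dim one gave -0.37. A probe set shared by the H2B gene and pseudogene of the same Hist3 cluster was 4.08-fold lower (0.15 and -1.88). A further probe set, shared by *H2aw* and *Trim17*, gave -0.26. The macroH2A genes *Macroh2a1* (-0.04), *Macroh2a2* (-0.36) and *Macroh2a3* (-0.15), whose large variants carry an extra domain, were within 1.3-fold by their own probe sets, but a probe set shared by *Macroh2a2* and *Macroh2a3* was 1.32-fold lower (0.20 and -0.20). *H2al2a* was dim (0.43). The centromeric H3 variant *Cenpa* stood at 4.21 and 4.13 (a fainter probe set gave -1.22 and -0.62, 1.51-fold higher), and the spermatid gene *Hils1* was dim (0.23).

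Genes of histone supply were next compared. Of 17 measured factors of histone gene transcription and mRNA 3′ end formation, 6 were over 1.3-fold lower in G9a-KO and 1 was higher, beside 22.8% lower and 21.0% higher of all genes above the median. Their median was -0.18, and that of all genes above the median 0.0049. *Slbp*, which binds the histone stem-loop, stood at 3.91 in WT and 3.22 in G9a-KO (1.61-fold lower), while its fainter probe sets differed by -0.0076 and -0.21. *Casp8ap2*, a factor of histone gene expression, was 1.54-fold lower, and the cap-binding genes *Ncbp2* and *Ncbp1* were 1.70-fold and 1.52-fold lower. *Cpsf3*, the endonuclease that cuts histone pre-mRNA, was 1.33-fold higher. *Npat*, the S-phase activator of the clusters, differed by -0.18.

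Of 32 measured chaperones and exchange factors, 13 were over 1.3-fold lower and 1 was higher (*Cabin1*, 0.41), with a median of -0.19. Among all genes above the median, 22.8% were lower and 21.0% higher, with a median of 0.0049. *Asf1a*, which hands H3 and H4 to other chaperones, stood at 4.13 and 3.01 (2.17-fold lower). The H3.3 chaperone genes *Hira* (1.67-fold) and *Ubn2* (1.55-fold) and the H3-H4 chaperone gene *Nasp* (1.56-fold) were lower too. Other probe sets gave smaller or opposite values for *Hira* (-0.0039, -0.17 and 0.14) and *Ubn2* (0.0089, 0.45 and 0.056), and for *Nasp* they ran from -0.55 to -0.068. Of the factors that place or remove H2A.Z, *Vps72* was lower (-0.50), whereas *Srcap* (-0.26), *Ep400* (0.042), *Znhit1* (-0.025) and *Anp32e* (-0.15) were within the threshold.

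Of 29 S-phase and replication genes, 7 were over 1.3-fold lower and 3 higher, with a median of -0.13, and the share of lower genes was close to the 22.8% of all genes above the median. *Pclaf*, a PCNA-binding factor, was 6.72-fold lower, *Gins3* 2.09-fold, the cyclin E gene *Ccne1* 1.73-fold and *Mcm10* 1.70-fold lower, although a fainter *Mcm10* probe set was 1.36-fold higher. The higher genes were *Gins2* (0.45), *Rfc4* (0.49) and the dim *Tyms* (1.00). The helicase genes *Mcm2* to *Mcm7* differed by -0.23 to 0.17. Of 11 genes of cell cycle entry and exit, 4 were higher and 1 was lower, namely *Ccnd1* (2.12 in WT and -0.62 in G9a-KO). Of all genes above the median, 21.0% were higher and 22.8% lower. The inhibitor genes *Cdkn2b* (1.13) and *Cdkn2a* (0.92), *Ccnd3* (0.61) and the proliferation marker *Mki67* (0.57) were higher. The part of the cell cycle in the histone values was not tested.

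**Figure D4:**
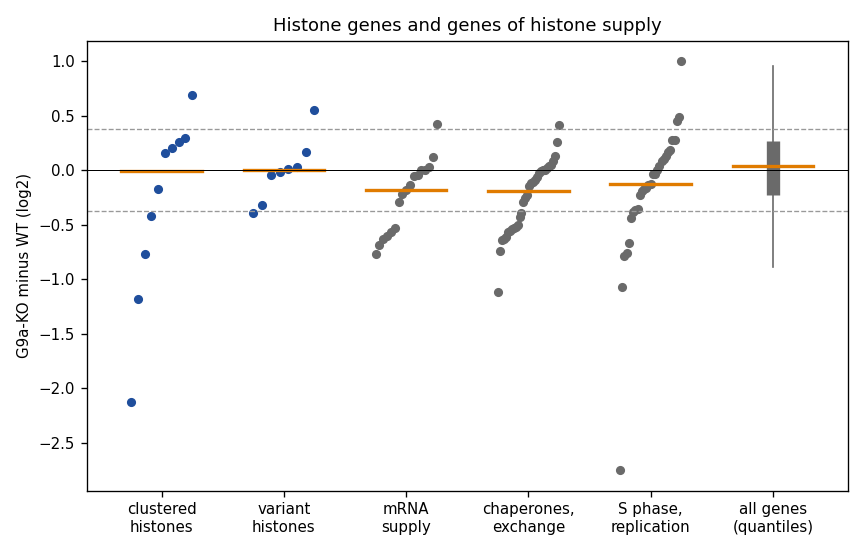
Log2 difference, G9a-KO over WT (vertical axis), for clustered and variant histone genes and for genes of histone mRNA supply, histone chaperones and exchange factors, and S phase and replication, 1 point per gene and 1 array of each genotype, with orange lines at the medians and dashed lines marking 1.3-fold. For all genes the thick bar spans the central 50% and the thin line percentiles 5 to 95, from -0.89 to 0.96; the medians of the lists of supply factors (-0.18), chaperones (-0.19) and replication genes (-0.13) lie below that of all genes (0.036).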

How the data were processed

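Total RNA (200 ng) of 1 WT and 1 G9a-KO culture was labelled with biotin and hybridised to an Affymetrix 3′ expression array. The values that the authors deposited are log2 intensities from RMA (R 3.2.1, per the submitters' notes on processing). A change in total RNA per cell cannot be read from values scaled in this way. They ran from 1.82 to 14.3. The 75th percentile of each array was subtracted, after the methods of the study, which raised every difference by 0.056. Gene names came from the platform annotation in GEO (34958 with 1 symbol, 932 with several, 9211 unnamed here). The older symbols, the classes and the order of genes came from the RefSeq gene table of GRCm38.p6, in which all 18 members were found by gene ID. The written rule for the classes used symbols alone, and older symbols were read for *H1f2*, *H1f4* and *H1f6*, whose current symbols do not show the cluster.

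A gene is represented by its probe set of highest mean level. No p-value, SE or interval was computed, since precision is limited by having 1 array per group. Members, lists and thresholds were chosen with earlier results of these data known, and the H1 box was added to the other motifs after the values were seen. All members and, from each list, up to 4 genes with the largest absolute difference among those above the median were to be named, and further genes were chosen after their values were seen. The steps were tested on simulated data in Python 3.11.15 with pandas 2.3.3. The alternatives comprised other scalings (lowess span 0.3 in statsmodels 0.14.6), other rules for probe sets and other classes. Probe sequences were not used here.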

Additional observations from a re-analysis of the deposited data

How the results depend on the processing

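Counts and medians were taken as stable within 1.5 times and within 0.11, the SD of the 18 spiked control probe sets, which leaves out variation between cultures. Centring on the array median lowered every difference by 0.10, and it, quantile normalization, lowess correction and the deposited values without a shift left the counts of lower and higher clustered genes at 4 and 1. Median centring gave 2 lower variants (*H2az2* joined *H2az1*). The mean over probe sets gave 0 lower variants. Taking the most changed probe set of a gene, or at least 1 probe set past the fold, gave 2 higher variants. With probe sets above the median only, the clustered median was 0.16 and 2 clustered genes were lower. Without the probe sets that can bind several transcripts, 2 clustered genes and 0 variants were lower. *H2az1* lost both its probe sets and *H2bc22* its only one, which left 9 clustered genes. *H1f2* was left with its probe set close to the array median (-0.20) and *H2bc21* turned to 0.056. At 2-fold, 2 clustered genes were lower, 0 were higher and 0 variants passed. Without the testis-specific *H1f6* the clustered median was -0.17. After the data were seen, classes were read from current symbols alone, which gave 7 clustered genes (median -0.17, 0 higher) and 11 variants (2 higher, 2 lower), and genes with a matching older symbol were added (clustered median -0.17, 3 variants higher). The cause of these changes was not tested beyond the smaller or larger sets of genes and probe sets. Across all these settings *H3c7* differed by -1.28 to -1.18, and *H2az1*, which has no value without the probe sets that can bind several transcripts, by -0.49 to -0.35 in the others. No paired analysis was possible because each group has 1 array. Signal over background limits the 5 members below the median on both arrays.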
